A study of Mus musculus with 14 samples.

Results

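The genes described here are regulators of the oligodendrocyte lineage and surface markers of its progenitors, 10 genes of the 18193 that the arrays named singly. They are Olig1, Olig2, Nkx2-2, Nkx6-2, Myrf, St18, Zfp536, Pdgfra, Cspg4 and Gpr17. They were chosen by name, as the probe sets whose platform symbol is one of these genes, and 15 of the 45037 probe sets that are not array controls met that rule. The list of genes itself was drawn up with earlier results of these data known. A probe set is the group of short probes that reads 1 transcript. Each gene is described by its brightest probe set, the one with the highest mean over the arrays, and the remaining probe sets are given after it. Values are log2 intensities, so a difference of 1 is a doubling of the signal.

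Cells were sorted by flow cytometry from brain regions of hGFAP eGFP mice aged 8 weeks, and their RNA was hybridised to 14 mouse expression arrays in 5 groups. In these mice the human GFAP promoter drives enhanced green fluorescent protein (GFP), which is known to label astrocytes and astrocyte-like stem cells. GFP-positive cells of the diencephalon formed the group DIEC_GFP (n = 4), which the labels call astrocytes. The subependymal zone (SEZ), the germinal layer beside the lateral ventricle, gave the other 4 groups. Cells positive for GFP and for the surface protein prominin were SEZ_GFPprom (n = 4), cells positive for GFP SEZ_GFP (n = 2) and cells positive for prominin SEZ_Prom (n = 2), and the labels call all of these neural stem cells. Cells positive for CD24 were SEZ_CD24 (n = 2), labelled ependymal cells. All groups carried the transgene, and the labels give no treatment. Arrays of a group are called biological replicates, but nothing says that they came from separate animals, and the p-values therefore measure only the spread of the arrays, which may be technical. No gate selected or removed oligodendrocyte lineage cells by a marker of that lineage, as far as the labels say. DIEC_GFP differed from SEZ_GFP in brain region, and from the remaining SEZ groups in region and gate, which cannot be told apart.

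Oligodendrocytes, the cells that wrap axons in myelin, arise from progenitors that persist throughout the adult brain, in grey and white matter and beside the ventricle. The basic helix-loop-helix factors Olig1 and Olig2 and the homeodomain factor Nkx2-2 set up the lineage and its differentiation, Nkx6-2 is a homeodomain factor of differentiating oligodendrocytes, and Myrf is the membrane-anchored factor that turns on myelin genes. St18 is a zinc finger factor of the myelin transcription factor 1 family, and Zfp536 is a zinc finger protein of the nervous system. Progenitors carry the receptor for platelet-derived growth factor Pdgfra and the proteoglycan NG2, encoded by Cspg4, while the receptor Gpr17 marks precursors that have begun to differentiate. Pericytes also make Cspg4, and fibroblast-like cells also make Pdgfra.

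The reference promoters of the members are shown as background, over the 250 bases before the start of each gene. Their part in the levels described below was not tested. RefSeq promoters of build GRCm38.p6 were matched for 6 of the 10 members. Capitals mark every E-box, CANNTG, the motif that helix-loop-helix factors such as Olig2 bind. The stretch of Olig2 lies at chr16:91225300-91225549 on the plus strand, that of Nkx2-2 at chr2:147186403-147186652 on the minus strand and that of Nkx6-2 at chr7:139582798-139583047 on the minus strand. Those of Pdgfra and Cspg4 lie at chr5:75152001-75152250 and chr9:56864854-56865103, both on the plus strand. Each is written 5′ to 3′ on the strand of its gene.
Olig2: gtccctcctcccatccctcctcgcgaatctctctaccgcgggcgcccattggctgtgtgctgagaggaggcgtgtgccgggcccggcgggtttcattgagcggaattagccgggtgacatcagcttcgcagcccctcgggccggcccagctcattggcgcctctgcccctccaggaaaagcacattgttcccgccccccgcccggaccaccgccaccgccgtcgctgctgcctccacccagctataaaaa
Nkx2-2: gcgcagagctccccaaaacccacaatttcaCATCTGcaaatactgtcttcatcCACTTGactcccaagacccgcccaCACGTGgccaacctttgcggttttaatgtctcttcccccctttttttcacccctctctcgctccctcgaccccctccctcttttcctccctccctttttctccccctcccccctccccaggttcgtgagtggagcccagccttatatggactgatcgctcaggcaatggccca
Nkx6-2: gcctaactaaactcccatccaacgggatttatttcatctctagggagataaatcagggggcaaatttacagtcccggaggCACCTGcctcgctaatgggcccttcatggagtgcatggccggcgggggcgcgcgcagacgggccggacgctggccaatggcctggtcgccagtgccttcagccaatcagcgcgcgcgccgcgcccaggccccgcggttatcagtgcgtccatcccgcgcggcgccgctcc
Pdgfra: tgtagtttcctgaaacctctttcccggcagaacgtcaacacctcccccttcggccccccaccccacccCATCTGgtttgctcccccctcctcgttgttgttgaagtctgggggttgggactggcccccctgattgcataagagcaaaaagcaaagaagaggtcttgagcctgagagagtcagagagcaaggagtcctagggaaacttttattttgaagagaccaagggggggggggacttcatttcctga
Cspg4: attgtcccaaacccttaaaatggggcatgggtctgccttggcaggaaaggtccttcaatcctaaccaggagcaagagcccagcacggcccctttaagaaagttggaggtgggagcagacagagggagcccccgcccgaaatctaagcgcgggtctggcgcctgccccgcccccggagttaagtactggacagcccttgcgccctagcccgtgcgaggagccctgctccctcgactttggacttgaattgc
The Nkx2-2 stretch held 3 E-boxes, those of Nkx6-2 and Pdgfra 1 each, and those of Olig2, Cspg4 and Zfp536 (not printed) 0. Of 32851 mouse promoters of the same length, 66.2% hold at least 1 E-box. The letters AACAAT, a core to which Sox factors bind, occurred once on either strand in the Olig2 stretch and in no other of the 6, against 9.4% of all promoters. The letters TNAAGTG, a core of Nkx2 factors, occurred once in the Nkx2-2 stretch, where the match overlaps an E-box, and in no other of the 6, against 10.1% of all promoters. These matches describe letters in a window and are not measured binding. Olig1 and Olig2 are neighbours on mouse chromosome 16, with 1 annotated long noncoding RNA, Gm52261, between them in GRCm38.p6.

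Across the 14 arrays, array medians were equal at log2 4.75, and 25.4% to 25.7% of probe sets lay no higher than an intensity of 10, where the background leaves little order. The lowest value of any member's brightest probe set was 11, so low values of Nkx2-2, Nkx6-2, Cspg4 and Gpr17 lie near that background. Over probe sets, the correlation of arrays within a group was 0.935 to 0.969, and between groups it was 0.857 to 0.952. The labels were checked against marker lists, each summarised as the mean log2 intensity of its genes on an array. Astrocyte markers were highest in DIEC_GFP, from 9.77 to 10.81, against 7.06 to 9.17 on the SEZ arrays. DIEC_GFP also read 10.49 to 11.46 in myelin markers and 8.72 to 9.32 in ependymal markers, so its signal was not of astrocytes alone. SEZ_Prom, labelled neural stem cells, read 10.58 to 10.73 in myelin markers and 7.28 to 7.58 in choroid plexus markers. Its mature neuron markers were the highest of the groups, at 8.34 to 8.38, and its microglial markers read 7.52 to 7.98. Ependymal markers were lowest in SEZ_CD24, the group labelled ependymal, at 5.23 to 5.82, and highest in SEZ_GFPprom, at 10.06 to 10.94, so the SEZ_CD24 label goes against its own markers. Neuroblast markers, a list that holds Cd24a, the gene of the CD24 sort, stood at 9.87 and 10.76 in SEZ_CD24. SEZ_GFP overlapped that range, at 9.85 to 9.96. Microglial markers stood at 9.73 and 8.23 in SEZ_CD24. The SEZ_CD24 arrays also stood apart from each other in several members, and the members' differences from DIEC_GFP are given below without each array.

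**Figure D1:**
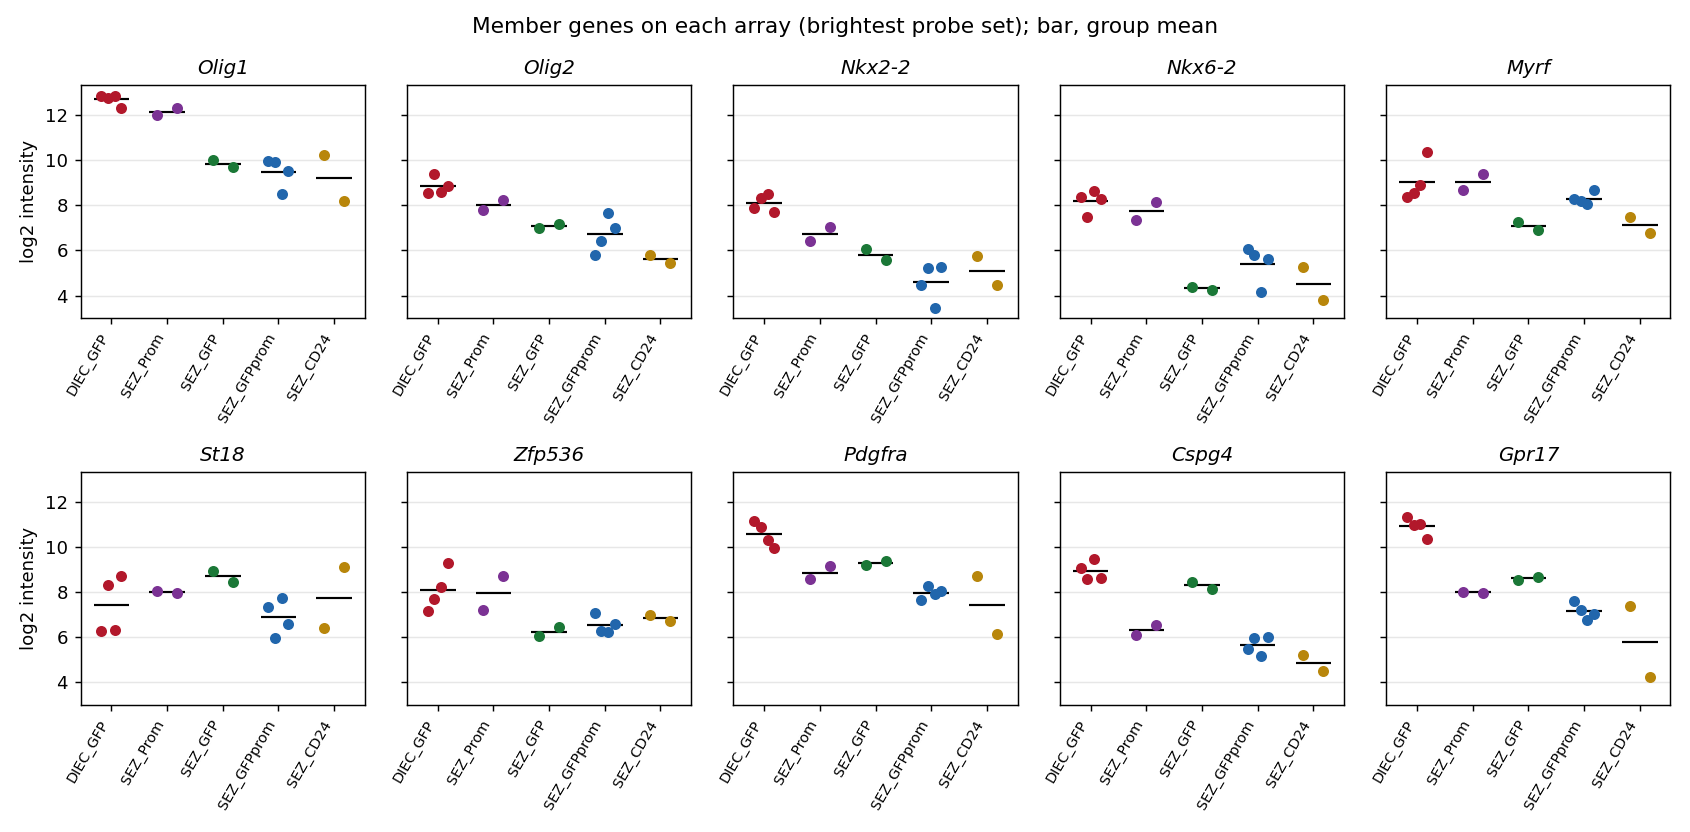
Log2 intensity (vertical axis) of the brightest probe set of each of the 10 genes, with 1 point per array, 1 colour per sort group and a bar at the group mean. DIEC_GFP has the highest mean for 9 of the 10 genes, all except St18, and the 2 points of SEZ_CD24 lie far apart for Olig1, St18, Pdgfra and Gpr17.

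DIEC_GFP had the highest group mean for 9 of the 10 genes. Only St18 was ordered otherwise, with SEZ_GFP highest and only SEZ_GFPprom below DIEC_GFP. Next below DIEC_GFP came SEZ_Prom for 6 transcription factors, Olig1, Olig2, Nkx2-2, Nkx6-2, Myrf and Zfp536. SEZ_GFP came next for the 3 cell surface genes Pdgfra, Cspg4 and Gpr17. St18 had SEZ_Prom after SEZ_GFP. SEZ_CD24 was lowest for 5 genes, SEZ_GFP for 3 and SEZ_GFPprom for 2. These are orders of means, and which neighbours in them differ beyond their spread is given gene by gene below. In RNA of bulk sorted cells, fewer cells of a lineage and less RNA per cell cannot be told apart.

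Olig1, a helix-loop-helix factor of the lineage, was highest in DIEC_GFP, at log2 12.87, 12.76, 12.88 and 12.34 on replicates 1 to 4 (mean 12.71 ± 0.25 SD, n = 4). SEZ_Prom followed at 12.01 and 12.31. SEZ_GFP stood at 10.01 and 9.70, SEZ_GFPprom at 9.98, 9.93, 8.52 and 9.53, and SEZ_CD24 at 10.26 and 8.21. The values thus formed a high band of DIEC_GFP and SEZ_Prom and a low band of the other groups that did not overlap it, while the low groups overlapped one another. Olig1 was 9.33-fold higher in DIEC_GFP than in SEZ_GFPprom (log2 difference 3.22 ± 0.42 SE, adjusted p = 0.000903 by limma with Benjamini-Hochberg adjustment over all probe sets, as for every adjusted p here). It was 7.25-fold higher than in SEZ_GFP (adjusted p = 0.006) and 11.1-fold higher than in SEZ_CD24 (adjusted p = 0.00146). The difference from SEZ_Prom did not pass, at 0.55 with a 95% interval from -0.57 to 1.67 (adjusted p = 0.687). Within the SEZ, Olig1 was lower in SEZ_GFPprom than in SEZ_Prom by a log2 difference of -2.67 (adjusted p = 0.0163) and higher in SEZ_Prom than in SEZ_CD24 by 2.92 (adjusted p = 0.0264). Between SEZ_GFP and SEZ_Prom the difference of -2.30 missed the threshold (adjusted p = 0.0555).

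Olig2, which specifies the lineage, had the same order of group means as Olig1. DIEC_GFP read 8.57, 9.39, 8.62 and 8.87, SEZ_Prom 7.78 and 8.23, and SEZ_GFP 7.0 and 7.18. SEZ_GFPprom spread from 5.78 to 7.67 (5.78, 6.41, 7.67 and 7.0), and SEZ_CD24 was lowest at 5.78 and 5.43. Every DIEC_GFP array lay above every SEZ array, and SEZ_GFPprom overlapped SEZ_GFP and touched SEZ_CD24. Olig2 was 4.42-fold higher in DIEC_GFP than in SEZ_GFPprom (2.15 ± 0.35, adjusted p = 0.00322), 3.41-fold higher than in SEZ_GFP (adjusted p = 0.0278) and 9.56-fold higher than in SEZ_CD24 (3.26 ± 0.43, adjusted p = 0.00081). Against SEZ_Prom the difference was 0.86 with an interval from -0.08 to 1.80 (adjusted p = 0.369). SEZ_Prom exceeded SEZ_CD24 by 2.40 (adjusted p = 0.0283), the only call for Olig2 within the SEZ.

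The homeodomain gene Nkx2-2 read 7.89, 8.34, 8.49 and 7.73 in DIEC_GFP, 6.44 and 7.04 in SEZ_Prom, and 6.04 and 5.58 in SEZ_GFP. In SEZ_GFPprom it read 4.46, 5.21, 3.46 and 5.29, and in SEZ_CD24 5.75 and 4.46. All 4 DIEC_GFP arrays stood above all SEZ arrays, and the lowest SEZ_GFPprom arrays were near background. The difference between DIEC_GFP and SEZ_GFPprom was 11.4-fold (3.51 ± 0.41, adjusted p = 0.000532), that from SEZ_CD24 8.02-fold (adjusted p = 0.00322) and that from SEZ_GFP 4.91-fold (adjusted p = 0.0177). Nkx2-2 in DIEC_GFP and SEZ_Prom differed by 1.37 with an interval from 0.26 to 2.48, which did not pass after adjustment (adjusted p = 0.2). SEZ_GFPprom was below SEZ_Prom by a log2 difference of -2.14 (adjusted p = 0.0413).

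Nkx6-2 was well above background in 2 groups and low in the others. It read 8.38, 7.51, 8.63 and 8.30 in DIEC_GFP and 7.36 and 8.13 in SEZ_Prom, which overlapped. SEZ_GFP was near background at 4.39 and 4.25, and SEZ_CD24 read 5.25 and 3.81. SEZ_GFPprom read 6.04, 5.81, 4.17 and 5.64, below both high groups on every array. Nkx6-2 was 14.7-fold higher in DIEC_GFP than in SEZ_GFP (3.88 ± 0.54, adjusted p = 0.00153), 12.8-fold higher than in SEZ_CD24 (adjusted p = 0.00146) and 6.89-fold higher than in SEZ_GFPprom (2.79 ± 0.44, adjusted p = 0.00276). DIEC_GFP and SEZ_Prom differed by 0.46 with an interval from -0.73 to 1.64 (adjusted p = 0.77). Within the SEZ, SEZ_Prom exceeded SEZ_GFP 10.8-fold (adjusted p = 0.0154), SEZ_CD24 9.31-fold (adjusted p = 0.0235) and SEZ_GFPprom 5.03-fold (adjusted p = 0.0378). With values this near background, the folds against SEZ_GFP and SEZ_CD24 may depend on how that background was removed, which was not tested.

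Myrf, which drives the switch to myelination, followed another pattern among the low groups. DIEC_GFP read 8.36, 8.57, 8.91 and 10.35, SEZ_Prom 8.68 and 9.40, and SEZ_GFPprom 8.27, 8.18, 8.07 and 8.67. SEZ_GFP read 7.26 and 6.89 and SEZ_CD24 7.48 and 6.75. SEZ_GFPprom thus overlapped DIEC_GFP, and DIEC_GFP replicate 4 stood above the other 3 arrays of its group. Myrf was 3.92-fold higher in DIEC_GFP than in SEZ_GFP (1.97 ± 0.48, adjusted p = 0.0274) and 3.81-fold higher than in SEZ_CD24 (adjusted p = 0.0239). It did not pass between DIEC_GFP and SEZ_GFPprom (0.75, interval -0.10 to 1.60, adjusted p = 0.246) or between DIEC_GFP and SEZ_Prom (0.01, interval -1.03 to 1.05, adjusted p = 1). Within the SEZ no Myrf difference passed, the nearest being SEZ_GFP against SEZ_Prom at -1.96 (adjusted p = 0.0739).

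St18 showed no difference that passed in any of the 10 comparisons, and its lowest adjusted p was 0.417. The arrays of DIEC_GFP split, at 6.29 and 6.30 on replicates 1 and 3 and 8.34 and 8.73 on replicates 2 and 4. SEZ_GFP read 8.95 and 8.46, SEZ_Prom 8.07 and 7.95, and SEZ_GFPprom 7.32, 5.95, 7.75 and 6.58. SEZ_CD24 read 6.41 and 9.12, the reverse of the order its arrays had for Olig1, Pdgfra and Gpr17. The spread within groups therefore covered most of the range of this gene. A second, dimmer probe set of St18 read 4.95, 4.95, 4.75 and 4.81 in SEZ_GFPprom and 6.02 and 7.21 in SEZ_CD24, a difference of -1.75 that passed (adjusted p = 0.0222), and it correlated with the brightest at r = 0.58 over 14 arrays.

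Zfp536 read 7.16, 7.69, 8.21 and 9.30 in DIEC_GFP and 7.20 and 8.70 in SEZ_Prom, which overlapped widely. SEZ_GFPprom read 7.07, 6.27, 6.23 and 6.57, SEZ_GFP 6.07 and 6.44, and SEZ_CD24 7.0 and 6.70. The DIEC_GFP arrays all stood above those 3 groups, by a narrow margin on replicate 1. The difference between DIEC_GFP and SEZ_GFPprom just passed (2.95-fold, 1.56 ± 0.44, adjusted p = 0.0413), and those between DIEC_GFP and SEZ_GFP (1.84, adjusted p = 0.0637) and SEZ_CD24 (1.24, adjusted p = 0.191) did not. The Zfp536 call was lost without any 1 of 10 of the 14 arrays, at adjusted p from 0.0538 to 0.101. It was kept without DIEC_GFP replicate 1, SEZ_GFPprom replicate 1 or either SEZ_Prom array. Without DIEC_GFP replicate 4 the difference was 1.16 (adjusted p = 0.0703), and with the mean of the Zfp536 probe sets it was 0.55 (adjusted p = 0.142). The other Zfp536 probe set was near background on all arrays (intensity 12 to 20) and differed the opposite way, by -0.46 (adjusted p = 0.0333).

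The growth factor receptor Pdgfra read 11.15, 10.89, 10.30 and 9.97 in DIEC_GFP. SEZ_GFP followed at 9.22 and 9.39, SEZ_Prom at 8.57 and 9.16, and SEZ_GFPprom at 7.67, 8.28, 7.94 and 8.05. SEZ_CD24 was split, at 8.73 and 6.15. All DIEC_GFP arrays exceeded all SEZ arrays, and SEZ_GFP exceeded SEZ_Prom by less than the error. Pdgfra was 6.03-fold higher in DIEC_GFP than in SEZ_GFPprom (2.59 ± 0.46, adjusted p = 0.00485) and 8.79-fold higher than in SEZ_CD24 (3.14 ± 0.56, adjusted p = 0.00442). The differences from SEZ_GFP (1.27, interval 0.04 to 2.51, adjusted p = 0.228) and from SEZ_Prom (1.71, interval 0.47 to 2.94, adjusted p = 0.145) did not pass. No pair of SEZ groups differed in Pdgfra past the threshold, SEZ_GFPprom against SEZ_GFP being -1.32 (adjusted p = 0.348). Of the 2 other Pdgfra probe sets, both dim, none of the comparisons passed, and they correlated with the brightest at r = 0.55 and 0.77 over 14 arrays.

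Cspg4, encoding NG2, had the smallest standard errors of the members in these comparisons. DIEC_GFP read 9.07, 8.60, 9.46 and 8.65 and SEZ_GFP 8.45 and 8.16. SEZ_Prom read 6.11 and 6.55, SEZ_GFPprom 5.49, 5.98, 5.17 and 6.0, and SEZ_CD24 5.21 and 4.52. The values formed a high band of DIEC_GFP and SEZ_GFP and a low band of the 3 groups sorted for prominin or CD24, with no overlap between the bands. Cspg4 was 9.75-fold higher in DIEC_GFP than in SEZ_GFPprom (3.29 ± 0.26, adjusted p = 8.54e-05), 16.9-fold higher than in SEZ_CD24 (4.08 ± 0.32, adjusted p = 6.09e-05) and 6.12-fold higher than in SEZ_Prom (2.61 ± 0.32, adjusted p = 0.00156). The difference of 0.64 from SEZ_GFP did not pass (interval -0.06 to 1.34, adjusted p = 0.297). Within the SEZ, Cspg4 was 6.25-fold lower in SEZ_GFPprom than in SEZ_GFP (-2.64 ± 0.32, adjusted p = 0.00134), 3.92-fold higher in SEZ_GFP than in SEZ_Prom (adjusted p = 0.0174) and 10.8-fold higher in SEZ_GFP than in SEZ_CD24 (adjusted p = 0.00605).

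The other Cspg4 probe set gave the same order at the top with smaller steps, but its high and low bands overlapped. In it SEZ_GFPprom replicate 4 (7.02) lay above DIEC_GFP replicate 2 (6.71). It read 7.74, 6.71, 7.61 and 7.66 in DIEC_GFP, 7.39 and 7.41 in SEZ_GFP, and 6.11, 6.73, 6.19 and 7.02 in SEZ_GFPprom. SEZ_Prom and SEZ_CD24 were lowest, at 5.83 and 6.15 and at 5.61 and 5.75. DIEC_GFP exceeded SEZ_GFPprom by 0.92 (adjusted p = 0.0411), SEZ_Prom by 1.44 (adjusted p = 0.0313) and SEZ_CD24 by 1.75 (adjusted p = 0.00479), while no comparison within the SEZ passed. Where the brighter probe set passed, this one gave 1.41 for SEZ_GFP minus SEZ_Prom (adjusted p = 0.0587), 1.72 for SEZ_GFP minus SEZ_CD24 (adjusted p = 0.0818) and -0.89 for SEZ_GFPprom minus SEZ_GFP (adjusted p = 0.244). Cspg4 and Pdgfra are also made by mural and fibroblast-like cells. The 12 mural markers averaged 4.57 to 5.03 in DIEC_GFP, 4.52 to 4.57 in SEZ_GFP, 5.13 to 5.49 in SEZ_GFPprom, 4.82 to 4.93 in SEZ_Prom and 4.13 to 4.44 in SEZ_CD24. Their members went both ways between DIEC_GFP and SEZ_GFPprom. Vtn was 3.73-fold higher in DIEC_GFP (adjusted p = 0.00398), while the contractile genes Acta2 (22.2-fold, adjusted p = 4.08e-05) and Tagln (4.53-fold, adjusted p = 0.000587) and Cnn1 (1.46-fold, adjusted p = 0.0146) were higher in SEZ_GFPprom. The 10 fibroblast and leptomeningeal markers averaged 3.96 to 4.69 on all arrays. The part of these cells in Cspg4 and Pdgfra was not tested.

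Gpr17, the receptor of precursors that have begun to differentiate, passed between DIEC_GFP and each SEZ group. DIEC_GFP read 11.36, 10.97, 11.01 and 10.34, SEZ_GFP 8.54 and 8.69, and SEZ_Prom 8.01 and 7.98. SEZ_GFPprom read 7.61, 7.20, 6.77 and 7.02 and SEZ_CD24 7.37 and 4.25. The DIEC_GFP arrays stood more than 1 log2 unit above every SEZ array. Gpr17 was 13.6-fold higher in DIEC_GFP than in SEZ_GFPprom (3.77 ± 0.51, adjusted p = 0.00123), 34.6-fold higher than in SEZ_CD24 (5.11 ± 0.63, adjusted p = 0.000575), 7.59-fold higher than in SEZ_Prom (2.92 ± 0.63, adjusted p = 0.0279) and 4.95-fold higher than in SEZ_GFP (2.31 ± 0.63, adjusted p = 0.0471). No Gpr17 difference between SEZ groups passed. The call against SEZ_GFP was lost without any 1 of 11 arrays (adjusted p from 0.0555 to 0.231) and was kept only without DIEC_GFP replicate 4 or either SEZ_CD24 array. The call against SEZ_Prom was lost without DIEC_GFP replicate 1, 2 or 3 or either SEZ_Prom array (adjusted p from 0.0533 to 0.181).

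**Figure D2:**
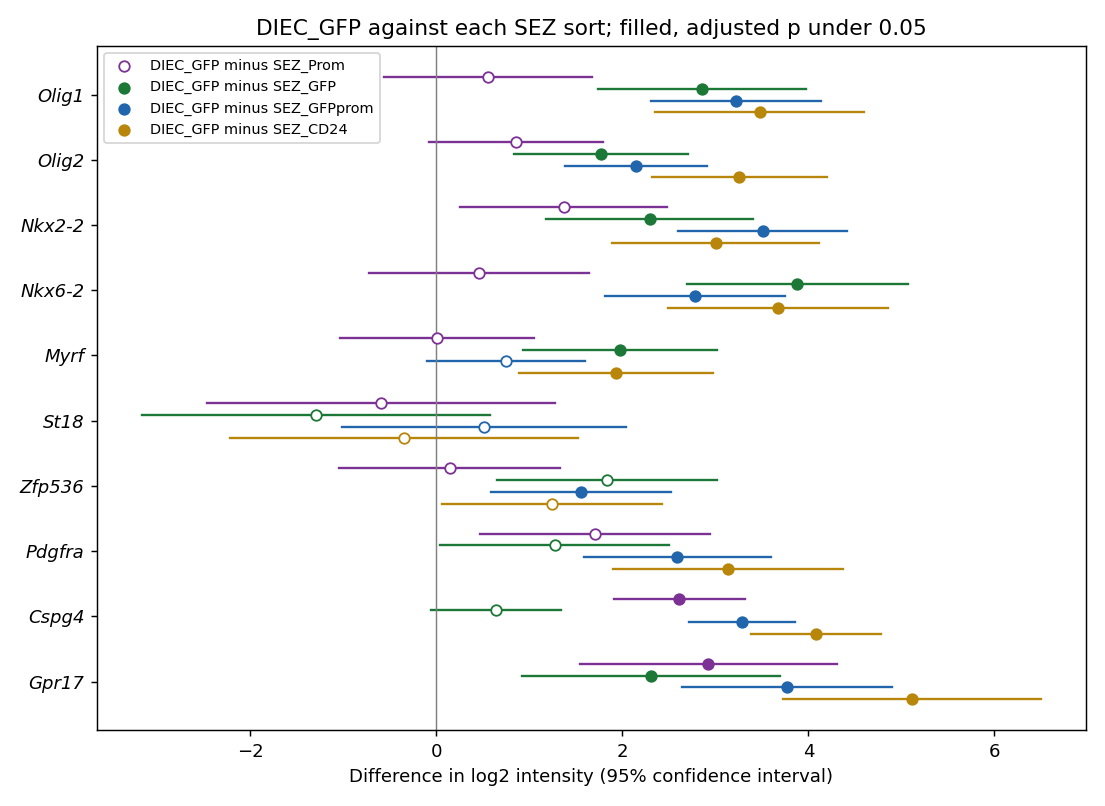
Difference in log2 intensity (horizontal axis) of DIEC_GFP minus each of the 4 SEZ groups for the 10 genes, with bars for the 95% interval of the limma fit and filled points for adjusted p under 0.05. Against SEZ_GFPprom 8 genes are filled, against SEZ_CD24 8, against SEZ_GFP 6 and against SEZ_Prom 2, Cspg4 and Gpr17.

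Counted by comparison, 8 of the 10 genes were higher in DIEC_GFP than in SEZ_GFPprom, all except Myrf and St18, where 6.77% of all genes were higher. Their median difference was 2.69, against -0.08 over all genes. Against SEZ_CD24 it was also 8 genes, all except St18 and Zfp536, where 8.76% of all genes were higher in DIEC_GFP (medians 3.20 and 0.01). Against SEZ_GFP it was 6, namely Olig1, Olig2, Nkx2-2, Nkx6-2, Myrf and Gpr17, where 6.10% of all genes were higher in DIEC_GFP (medians 1.90 and 0.00). Against SEZ_Prom it was 2, Cspg4 and Gpr17, where 2.33% of all genes were higher in DIEC_GFP (medians 0.71 and -0.02). These comparisons share the DIEC_GFP arrays. Because the genes were chosen with earlier results of these data known, the shares of all genes are a background and not a test. Whether the difference from DIEC_GFP itself differs between SEZ groups is given by the comparisons within the SEZ below.

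The count against SEZ_GFP rests on its 2 arrays. Without SEZ_GFP replicate 1 it was 2, and without replicate 2 it was 1, where a single array was assumed to vary like the other groups. The directions stayed, and the call for Nkx6-2 was kept in both cases, while Olig1 was lost without replicate 2 (adjusted p = 0.0816). The Olig2 call was also lost without DIEC_GFP replicate 2 (adjusted p = 0.0644). Against SEZ_GFPprom the count was 7 or 8 without any 1 array. Against SEZ_Prom it was 1 without DIEC_GFP replicate 1, 2 or 3 or either SEZ_Prom array, and 3 without either SEZ_CD24 array.

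The SEZ_CD24 arrays differed from each other by as much as some groups did. Replicate 1 exceeded replicate 2 8.68-fold in Gpr17 (intensity 165 and 19), 5.97-fold in Pdgfra (424 and 71) and 4.13-fold in Olig1 (1225 and 297), and St18 went the other way, at 85 and 555. Olig2 (55 and 43), Cspg4 (37 and 23) and Zfp536 (128 and 104) differed less. The marker lists split too, with myelin genes at 8.10 and 6.34, microglial markers at 9.73 and 8.23, and neuroblast markers at 9.87 and 10.76. The part of these cells in the members' values was not tested. Against DIEC_GFP the count of members was 7 without replicate 1, with Myrf lost (adjusted p = 0.0517), and 6 without replicate 2, with Nkx2-2 (adjusted p = 0.0526) and Myrf (adjusted p = 0.199) lost. Without replicate 1 the difference from DIEC_GFP was 6.67 for Gpr17 (adjusted p = 6.53e-05), and without replicate 2 it was 3.55 (adjusted p = 0.000828). In the same order it was 4.42 and 1.85 for Pdgfra, 4.50 and 2.45 for Olig1, 4.39 and 2.95 for Nkx6-2, 3.65 and 2.36 for Nkx2-2, and 4.42 and 3.74 for Cspg4.

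Within the SEZ no comparison called more than 3 members. Between SEZ_GFP and SEZ_Prom, Nkx6-2 and Cspg4 differed in opposite directions. Nkx6-2 was 10.8-fold higher in SEZ_Prom (log2 difference -3.43, interval -4.79 to -2.06, adjusted p = 0.0154), where 3.07% of all genes were higher in SEZ_Prom. Cspg4 was 3.92-fold higher in SEZ_GFP (1.97, interval 1.16 to 2.78, adjusted p = 0.0174), where 2.09% of all genes were higher in SEZ_GFP. None of the other 8 members passed. Olig1 (-2.30), Myrf (-1.96), Zfp536 (-1.70), Nkx2-2 (-0.93) and Olig2 (-0.92) had the sign of Nkx6-2, and St18 (0.70), Gpr17 (0.62) and Pdgfra (0.43) that of Cspg4. With 2 arrays in each group, both calls were lost when any 1 of these 4 arrays was left out, with adjusted p for Nkx6-2 from 0.0579 to 0.121 and for Cspg4 from 0.066 to 0.111, and with the directions kept.

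**Figure D3:**
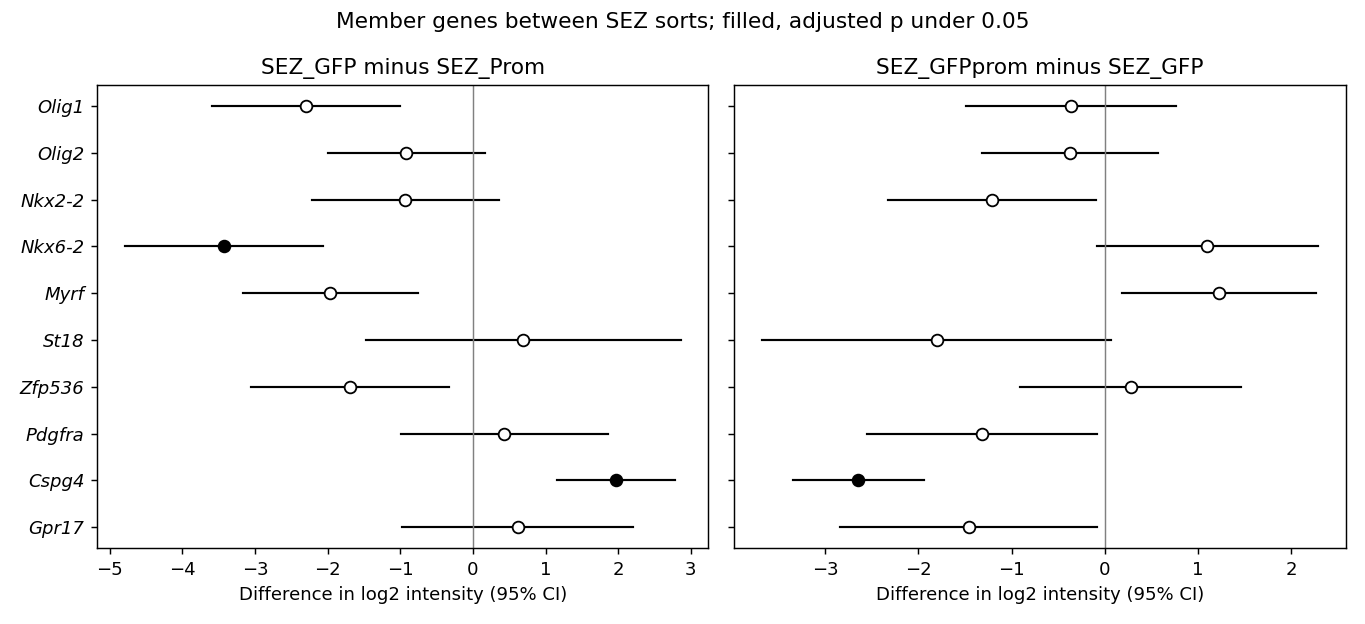
Difference in log2 intensity (horizontal axis, 95% interval of the limma fit) of SEZ_GFP minus SEZ_Prom on the left and SEZ_GFPprom minus SEZ_GFP on the right for the 10 genes, with filled points for adjusted p under 0.05. On the left Nkx6-2 (-3.43) and Cspg4 (1.97) are filled on opposite sides of 0, and on the right only Cspg4 (-2.64) is.

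SEZ_GFPprom and SEZ_GFP differed in 1 member, Cspg4, which was higher in SEZ_GFP by its brighter probe set (6.25-fold) and did not pass by the other (1.85-fold, adjusted p = 0.244), where 0.346% of all genes were higher in SEZ_GFP. The call by the brighter probe set was kept without each of the 14 arrays in turn, and without either SEZ_CD24 array the count was 2. St18 (-1.80), Gpr17 (-1.46), Pdgfra (-1.32), Nkx2-2 (-1.21), Olig2 (-0.37) and Olig1 (-0.36) lay on the same side as Cspg4. Myrf (1.22), Nkx6-2 (1.10) and Zfp536 (0.28) lay on the other side, and none of these genes besides Cspg4 was past the threshold. SEZ_GFPprom was lower than SEZ_Prom in Olig1, Nkx2-2 and Nkx6-2, where 1.88% of all genes were higher in SEZ_Prom. None of these 3 calls held without either SEZ_Prom array, at adjusted p of 0.103 and 0.137 for Olig1, 0.147 and 0.275 for Nkx2-2, and 0.126 and 0.274 for Nkx6-2. Nkx2-2 was also lost without DIEC_GFP replicate 1 or 2, either SEZ_GFP array or SEZ_GFPprom replicate 1 (adjusted p from 0.0543 to 0.0915), and Nkx6-2 without DIEC_GFP replicate 1, either SEZ_GFP array or SEZ_GFPprom replicate 2 or 4 (adjusted p from 0.0542 to 0.0619). Without SEZ_GFPprom replicate 3 the count of members was 4.

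Between SEZ_GFPprom and SEZ_CD24 limma called 0 of the 10 members, where 8.0% of all genes were higher in SEZ_GFPprom and 4.01% in SEZ_CD24. At an unadjusted p under 0.05 there were 3, Olig2 (1.11), Myrf (1.18) and Cspg4 (0.79), all higher in SEZ_GFPprom. The share of all genes at that unadjusted threshold was not counted, so these 3 are not read as a result about the members. By its dimmer probe set St18 was lower in SEZ_GFPprom (-1.75, adjusted p = 0.0222). Calls also came up when arrays were left out. Olig2 passed without SEZ_GFPprom replicate 1 (adjusted p = 0.0424), and Myrf without DIEC_GFP replicate 4 (adjusted p = 0.0294), both higher in SEZ_GFPprom. Gpr17 and Pdgfra turned on the split of SEZ_CD24. Without its replicate 1, Gpr17 (2.90, adjusted p = 0.00203) and Pdgfra (1.83, adjusted p = 0.0303) were higher in SEZ_GFPprom, and without its replicate 2 their differences were -0.22 (adjusted p = 0.848) and -0.75 (adjusted p = 0.417).

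SEZ_GFP and SEZ_CD24 differed in 1 member, Cspg4, higher in SEZ_GFP by its brighter probe set (10.8-fold), where 0.231% of all genes were higher in SEZ_GFP. The other probe set did not pass (3.29-fold, adjusted p = 0.0818). The call was lost without SEZ_GFP replicate 1 (3.29, adjusted p = 0.0705), and without SEZ_CD24 replicate 1 there were 3 calls. SEZ_Prom exceeded SEZ_CD24 in Olig1, Olig2 and Nkx6-2, where 2.57% of all genes were higher in SEZ_Prom. All 3 calls were lost without SEZ_CD24 replicate 2 or either SEZ_Prom array (adjusted p from 0.072 to 0.159), and Olig2 also without SEZ_CD24 replicate 1 (adjusted p = 0.0591). Cspg4 (1.47, adjusted p = 0.0561) just missed the threshold there.

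Other genes of the lineage were read from lists named for their stage, and the counts use the shares of all genes given above as their background. The lists too were chosen with earlier results of these data known. Of 19 further progenitor markers, 11 were higher in DIEC_GFP than in SEZ_GFPprom and 0 lower (median 1.27). Among them were the matrix gene Matn4 (9.67-fold, adjusted p = 0.000219), Lhfpl3 (7.02-fold, adjusted p = 0.00118), Susd5 (5.42-fold, adjusted p = 0.00539) and Epn2 (3.02-fold, adjusted p = 0.00721). With 1 array left out the count ran from 7, without DIEC_GFP replicate 1 or SEZ_GFPprom replicate 4, to 12. It was 11 against SEZ_CD24 (7 without its replicate 2), 6 against SEZ_Prom (1 without its replicate 1) and 3 against SEZ_GFP (0 without either of its arrays).

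The proteoglycan genes Vcan and Ptprz1 went with Cspg4 between SEZ_GFP and SEZ_Prom. Vcan was 9.57-fold higher in SEZ_GFP (3.26 ± 0.42, adjusted p = 0.0049) and Ptprz1 3.98-fold (adjusted p = 0.00549), the only 2 of the 19 that passed there. The count of 2 fell to 0 without SEZ_GFP replicate 2. Vcan (-1.89, adjusted p = 0.0247) and Matn4 (-2.30, adjusted p = 0.0139) were lower in SEZ_GFPprom than in SEZ_GFP, the same direction as Cspg4.

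Markers of committed precursors and new oligodendrocytes were higher in DIEC_GFP than in SEZ_GFPprom in 11 of 13 (median 1.70). The G protein-coupled receptor gene Gpr37 was 21.0-fold higher, the growth factor gene Bmp4 6.37-fold, the phosphodiesterase gene Enpp6 4.57-fold and the deacetylase gene Sirt2 2.83-fold (adjusted p from 0.000512 to 0.00291). Against SEZ_Prom only Bmp4 (2.12, adjusted p = 0.021) and Enpp6 (1.93, adjusted p = 0.0322) passed, and neither without SEZ_Prom replicate 1. Between SEZ_GFP and SEZ_Prom 4 of the 13 were higher in SEZ_Prom, among them Gpr37 (-5.32, adjusted p = 0.00612) and Bcas1 (-3.26, adjusted p = 0.00566), and 0 without SEZ_GFP replicate 2.

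Myelin genes placed SEZ_Prom beside DIEC_GFP. The 17 genes averaged 10.49 to 11.46 on the DIEC_GFP arrays and 10.58 to 10.73 on those of SEZ_Prom, against 7.99 to 9.17 in SEZ_GFPprom, 7.21 to 8.03 in SEZ_GFP and 6.34 to 8.10 in SEZ_CD24. In DIEC_GFP 14 were higher than in SEZ_GFPprom (10 without DIEC_GFP replicate 2), led by the protease gene Klk6 at 18.6-fold (adjusted p = 0.000207), with the myelin basic protein gene Mbp at 2.31-fold (adjusted p = 0.000536). Against SEZ_GFP it was 17 of 17, which fell to 5 without SEZ_GFP replicate 2. Against SEZ_Prom 1 passed, Klk6 (2.34, adjusted p = 0.0301), with a median of 0.18. Between SEZ_GFP and SEZ_Prom 10 were higher in SEZ_Prom (2 without SEZ_GFP replicate 2), with Mbp 6.79-fold (adjusted p = 0.000355) and Mobp 77.3-fold (adjusted p = 0.00253). The groups high in Olig1 and Nkx6-2 were therefore also the groups high in myelin genes, and the part of myelinating cells in those members' values was not tested.

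**Figure D4:**
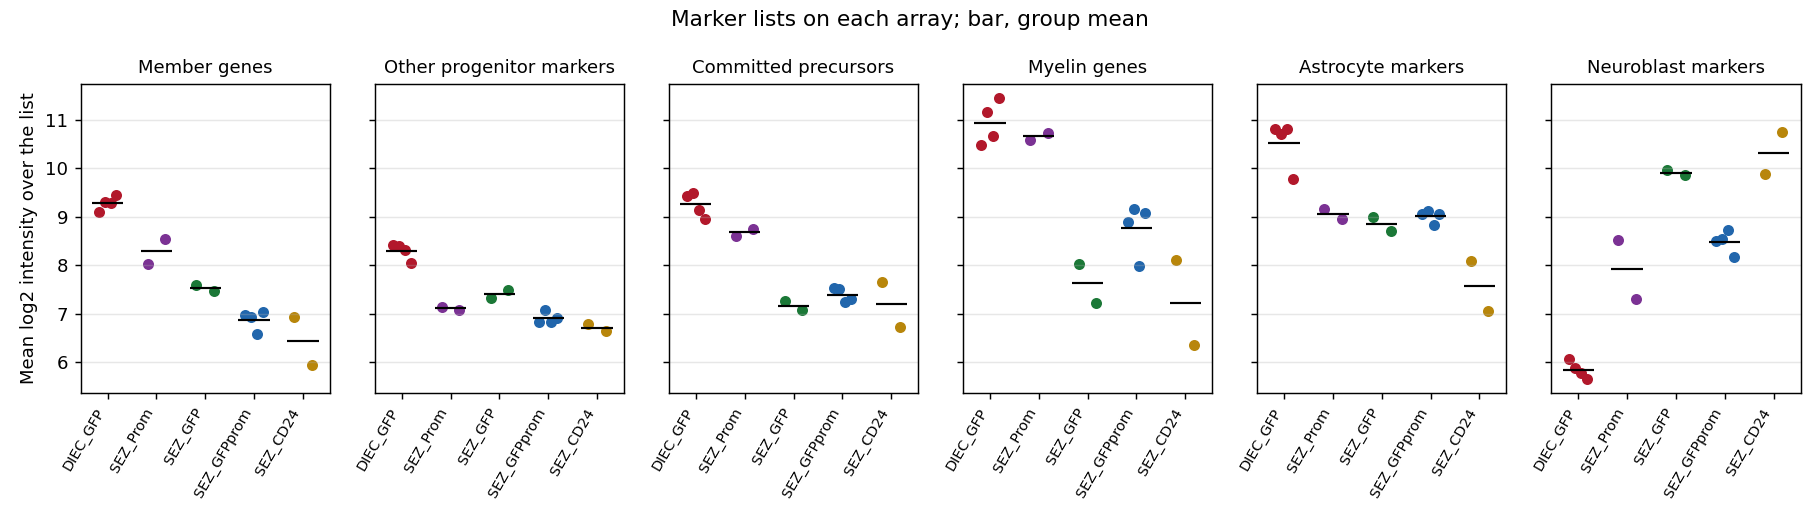
Mean log2 intensity over the genes of a list (vertical axis) on each array, with 1 panel per list, 1 point per array and a bar at the group mean. The myelin panel sets DIEC_GFP (10.49 to 11.46) beside SEZ_Prom (10.58 to 10.73), while in the panel of other progenitor markers DIEC_GFP (8.04 to 8.42) stands alone above 7.49.

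Between DIEC_GFP and SEZ_GFPprom, transcription factors of the lineage outside the member list gave counts near those of all genes. Some other comparisons called more of the 21. Against SEZ_CD24, 7 were higher in DIEC_GFP and 3 lower. There, 8.76% of all genes were higher in DIEC_GFP, and 2690 of 18193 genes differed in either direction. SEZ_GFPprom was higher than SEZ_CD24 in 6 and lower in 2, where 8.0% of all genes were higher and 4.01% lower. Between SEZ_GFP and SEZ_Prom, 4 were higher in SEZ_GFP, where 2.09% of all genes were. Of 21, limma called 2 higher in DIEC_GFP than in SEZ_GFPprom, Hes1 (1.48, adjusted p = 0.0174) and the RNA-binding protein gene Qk, listed with them (0.79, adjusted p = 0.0487), and 2 lower, Id4 (-0.80, adjusted p = 0.0104) and Nfib (-0.93, adjusted p = 0.0147), where 6.77% of all genes were higher in DIEC_GFP and 8.83% higher in SEZ_GFPprom. Sox10, the partner factor of Olig2 in this lineage, was 1.65 higher in DIEC_GFP without passing (adjusted p = 0.061), and passed against SEZ_CD24 (3.02, adjusted p = 0.0106). Sox6 (1.40, adjusted p = 0.00864) and Nfib (1.46, adjusted p = 0.0219) were among 4 that were higher in SEZ_GFP than in SEZ_Prom, none of which passed without either SEZ_GFP array. Among the 4 ligands of platelet-derived growth factor and its second receptor Pdgfrb, Pdgfd was higher in DIEC_GFP than in SEZ_GFPprom (2.59, adjusted p = 0.00227). Pdgfa, whose product is the main ligand of the receptor Pdgfra, was 5.48-fold higher in SEZ_Prom than in SEZ_GFP (adjusted p = 0.0222), a call lost without any 1 of these 4 arrays.

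Markers of other cell types moved between the same groups, and their part in the members' differences was not tested. Between DIEC_GFP and SEZ_GFPprom, 8 of 15 astrocyte markers were higher in DIEC_GFP, among them Gjb6 (12.8-fold, adjusted p = 0.000137) and Slc7a10 (11.6-fold, adjusted p = 0.000274). There, 8 of 12 neuroblast, 9 of 12 ependymal and 10 of 11 cell cycle markers were higher in SEZ_GFPprom, where 8.83% of all genes were higher, with the proliferation gene Mki67 37.1-fold (adjusted p = 0.000238). Cell cycle markers averaged 4.58 to 5.66 in DIEC_GFP and 7.29 to 9.41 on the SEZ arrays. Choroid plexus markers were highest in SEZ_Prom, at 7.28 to 7.58. The signal ratio of the 3′ to the 5′ end of the control transcripts, a sign of RNA length, averaged 5.40 ± 0.29 (log2) in DIEC_GFP, 5.15 in SEZ_CD24, 4.94 ± 0.18 in SEZ_GFPprom, 4.73 in SEZ_GFP and 4.63 in SEZ_Prom. With that ratio as a covariate the members called numbered 9 for DIEC_GFP against SEZ_GFPprom, 5 against SEZ_GFP, 1 against SEZ_Prom and 9 against SEZ_CD24, and 0 for SEZ_Prom against SEZ_CD24. Myrf then passed between DIEC_GFP and SEZ_GFPprom (1.80, adjusted p = 0.00889).

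DIEC_GFP replicate 4 differed from the other 3 arrays of its group. It had the highest Myrf, Zfp536 and myelin genes (11.46), the lowest astrocyte markers (9.77) and mature neuron markers at 5.09, against 7.15 to 7.73 on the others. It also had the lowest Olig1, Pdgfra and Gpr17 of the group. Without it, the Myrf difference between DIEC_GFP and SEZ_GFPprom was 0.31 (adjusted p = 0.469).

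How the members varied together was described by correlation over the 14 arrays, which share the 5 group means, so the coefficients mainly restate the group pattern. Olig1 went with Nkx6-2 (r = 0.95) and Nkx2-2 (r = 0.94). Pdgfra went with Gpr17 (r = 0.97) and Cspg4 (r = 0.89), and Cspg4 with Gpr17 (r = 0.91). Leaving St18 aside, the 3 surface genes and the 6 other factors also correlated with each other, from 0.33 (Myrf with Cspg4) to 0.87 (Nkx2-2 with Pdgfra). Those 6 factors correlated among themselves over a like range, from 0.54 (Nkx2-2 with Myrf) to 0.95, so they did not stand apart. The 3 surface genes correlated with one another from 0.89 to 0.97, above their highest coefficient with those factors (0.87). St18 lay between -0.28 and 0.10 with every other member. Among 8376 other genes with a group mean of at least 7, those most like Olig1 were Cd82 (r = 0.96), Ermp1 and Gltp (both 0.95), with Nkx6-2 and Nkx2-2 next. Those most like Pdgfra were Gpr17, Rhbdf1 (0.94), Slc7a10 (0.93), Mfsd2a and Fgfr3 (both 0.92). Those most like Gpr17 were Slc7a10 (0.97), Pdgfra, Mfsd2a (0.96), Gpld1 and Fgfr3 (both 0.95). Slc7a10 and Fgfr3 are on the astrocyte list.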

How the data were processed

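The authors deposited linear intensity values from Affymetrix arrays, made with RMA per the submitters' processing notes, with no version given. Per the labels' protocols, column-purified, DNase-treated RNA went through repeated amplification before biotin labelling. The values were rounded to whole numbers, and 45.1% of ranks were equal in all 14 arrays. Their log2 was taken with no pseudocount. Array number limits the precision. Of 45101 probe sets, 64 controls were left out, 34945 had 1 symbol, 932 several and 9160 none. Genes were named through the platform's gene table.

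All 45037 remaining probe sets were fitted with limma 3.58.1 in R 4.3.3 (lmFit, contrasts.fit, eBayes), using all 14 arrays at once and 1 mean for each group (9 residual and 2.31 prior degrees of freedom). The 10 pairwise comparisons were tested two-sided, with p adjusted over all probe sets by the Benjamini-Hochberg method at 0.05. Shares of all genes use each gene's brightest probe set. Replicate numbers were not used to pair samples. Of 22 same-number pairs, 3 deviated together at r over 0.1 (range -0.14 to 0.11). Pairs between groups of 2 arrays give the same r for both numbers, and different-number pairs were not compared. The check therefore cannot decide whether the numbers pair samples.

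Named beside the members were up to 4 genes per list with the smallest adjusted p in DIEC_GFP minus SEZ_GFPprom, up to 2 in SEZ_GFP minus SEZ_Prom, and the 5 genes most like Olig1, Pdgfra and Gpr17. Printed list genes are part of these, and Sox10, and the Matn4, Vcan, Bmp4, Enpp6 and Klk6 values in further comparisons, were chosen after their values were seen. The members and lists were chosen with earlier results of these data known. Some list members were not analysed here. Alternatives were each array left out, scaling, background floor, dim filters, probe set rule, replicate block, array weights, priors, groups fitted alone and the control ratio as covariate. Leaving arrays out for the list counts was added after seeing the data.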

Additional observations from a re-analysis of the deposited data

Results flagged for a closer look

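In the dimmer Cspg4 probe set, DIEC_GFP replicate 2 stood at log2 6.71, below the other 3 arrays of the group at 7.61 to 7.74. The gap of 0.90 was 0.877 of the group's range, past the 95% critical value of Dixon's test for 4 samples. It was the only flag among 30 groups of 4 examined, and chance flags about 1 in 20. In the brighter Cspg4 probe set the same array read 8.60, within 0.05 of replicate 4 at 8.65.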

How the results depend on the processing

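The 10 genes in 10 comparisons gave 100 results, of which 34 passed as reported. Of these, 15 passed under all 26 alternatives and 19 were lost under some. Another 20 passed only under some alternative. The counts of called members, out of 10, changed by over 1.5 times as follows. The cause was not tested, except that fewer arrays enter the fits of groups alone and that the floor of 10 changed no member value. With the replicate number as a block, which the main fit did not use, the count was 3 for DIEC_GFP minus SEZ_GFP and 1 for DIEC_GFP minus SEZ_Prom. It was 0 for SEZ_GFPprom minus SEZ_Prom and 1 for SEZ_GFP minus SEZ_Prom. Setting intensities under 10 to 10 left 1 for DIEC_GFP minus SEZ_Prom and 1 for SEZ_GFPprom minus SEZ_Prom. The lowest intensity of any member's brightest probe set was 11, so this floor changed none of their values or differences. It reached the calls only through other probe sets, in the shared prior and the adjustment. Groups fitted alone gave 0 for SEZ_GFPprom minus SEZ_Prom, SEZ_GFP minus SEZ_Prom, SEZ_GFP minus SEZ_CD24 and SEZ_Prom minus SEZ_CD24. SEZ_GFP minus SEZ_Prom rose to 4 with array weights, with probe sets averaged per gene and without the dimmest 50%. The control 3′ to 5′ ratio as covariate gave 1 for DIEC_GFP minus SEZ_Prom, 2 for SEZ_GFPprom minus SEZ_GFP, 1 for SEZ_GFPprom minus SEZ_Prom and 0 for SEZ_Prom minus SEZ_CD24. Leaving out each array in turn gave 7 to 8 for DIEC_GFP minus SEZ_GFPprom, 1 to 7 for DIEC_GFP minus SEZ_GFP, 1 to 3 for DIEC_GFP minus SEZ_Prom and 6 to 8 for DIEC_GFP minus SEZ_CD24. It gave 1 to 2 for SEZ_GFPprom minus SEZ_GFP, 0 to 4 for SEZ_GFPprom minus SEZ_Prom, 0 to 2 for SEZ_GFPprom minus SEZ_CD24, 0 to 3 for SEZ_GFP minus SEZ_Prom, 0 to 3 for SEZ_GFP minus SEZ_CD24 and 0 to 4 for SEZ_Prom minus SEZ_CD24. Reversed in sign were Pdgfra (-0.75) and Gpr17 (-0.22) in SEZ_GFPprom minus SEZ_CD24 without SEZ_CD24 replicate 2, neither called as reported. Without SEZ_CD24 replicate 1 these were 1.83 for Pdgfra and 2.90 for Gpr17. Fits on 1 array of a group assume that it varies like the others.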
